A study of Homo sapiens with 24 samples.

Results

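PF382 is an established human T-cell acute lymphoblastic leukemia line. Its decitabine dose series holds 4 of the 24 RNA-seq libraries of the study: 1 of untreated cells and 1 each of cells exposed to decitabine at 5, 12.5 and 25 nM. They were chosen by their labels, as the PF382 libraries whose titles carry the prefix of the decitabine set. Cells were kept in logarithmic growth, the drug was added every 24 h, and RNA was taken after 96 h. A second untreated PF382 library, made with the set for azacitidine, served as a check of direction and is called the second untreated library below. The same decitabine doses were given to HH (cutaneous T-cell lymphoma) and TLOm1 (adult T-cell leukemia), also established lines, and PF382 itself also received azacitidine at 125, 250 and 500 nM. The title of the 12.5 nM library misspells the line, but its other labels name PF382. Each condition has 1 library, so no value at a single dose has a replicate error, and the 3 doses are not independent cultures of one treatment.

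Decitabine is a deoxycytidine analog. Cells take it up through nucleoside transporters, deoxycytidine kinase phosphorylates it, and it enters DNA during replication, where it traps DNA methyltransferases. Cytosines of newly made CG sites then stay unmethylated, and genes kept silent by promoter methylation, among them genes normally read only in germ cells, can be transcribed. Immature T cells of the thymus express recombinase genes, CD1 molecules and the CD3 chains of the T-cell receptor complex. Methylation was not measured in these libraries.

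The 4 libraries held 15348774 reads (untreated), 17424654 (5 nM), 14949572 (12.5 nM) and 13892514 (25 nM) assigned to genes, and the second untreated library held 22914158. Over the 24 libraries totals ran from 13892514 to 32496676. Among the 3 treated libraries depth fell as the dose rose, while the number of genes with a read rose from 16716 in untreated cells to 17286, 17775 and 18565. The part of depth in the other results was not tested. Genes of the T lineage were expressed in all libraries of the series. CD3E was at 579 CPM (reads per 1e6 reads of the library) untreated and at 538, 518 and 460 CPM over the doses. CD3D was at 310 to 270 CPM, and LCK, the T-cell tyrosine kinase, at 547 to 423 CPM. CD7 was lower (17.6 to 22.9 CPM), as was CD8B (5.41 to 11.0 CPM), and CD2 was low in every library (4.53 to 5.51 CPM). These levels were not compared with HH and TLOm1, so they show a lineage and not which line it is. Unless stated otherwise, values are given as untreated, second untreated, 5, 12.5 and 25 nM, and CPM values were scaled by the trimmed mean of M values (TMM), whose factors rose with dose from 1.08 to 1.21. The 2 untreated libraries were not interchangeable. By the edgeR test 1259 genes differed between them, and the correlation of their log levels across genes was 0.985, against 0.994, 0.983 and 0.968 for the untreated library and 5, 12.5 and 25 nM. Whether drug set or culture made that difference cannot be told apart.

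A small group of genes went from silence to clear expression at every dose. Of 9871 genes with at most 3 reads in each untreated library, 5 reached 1 CPM of the library total in all 3 decitabine libraries. GTSF1, a germ cell factor of the piRNA pathway, had 1 and 2 reads in the untreated libraries and 89, 387 and 625 reads at 5, 12.5 and 25 nM (5.11, 25.9 and 45.0 CPM of the library total). PAGE5, a cancer-testis antigen gene of the X chromosome, had 1 and 1 reads untreated and 47, 224 and 545 reads over the doses. TEX15, needed for meiosis in male germ cells, had 0 and 1 reads untreated and 28, 134 and 303 reads. All of these rose at each step of dose, and 3 of the 5 are germline genes. The others were lower: PTX4, a pentraxin, had 0 and 3 reads untreated and 19, 26 and 46 reads, and ADAMTS4, a protease of the extracellular matrix, had 0 and 2 reads untreated and 23, 27 and 42 reads. At most 3 reads in a library of this size is a level of at most 0.195 CPM, which covers counting error only. These genes were picked for being high in treated cells, so their number is a description.

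The stretches upstream of the start of 3 of these genes are shown because their CG sites are the bases on which the drug acts. They come from RefSeq on GRCh38.p14, while the submitters' notes name GRCh37.p2, and each runs over the 250 bases before the annotated start, 5′ to 3′ on the strand of the gene, with every CG in capitals. GTSF1 lies on the minus strand at chr12:54473603-54473852, PAGE5 on the plus strand at chrX:55220096-55220345 and PTX4 on the minus strand at chr16:1488468-1488717. They hold 8, 9 and 7 CG sites, and no methylation value exists for them here.
GTSF1: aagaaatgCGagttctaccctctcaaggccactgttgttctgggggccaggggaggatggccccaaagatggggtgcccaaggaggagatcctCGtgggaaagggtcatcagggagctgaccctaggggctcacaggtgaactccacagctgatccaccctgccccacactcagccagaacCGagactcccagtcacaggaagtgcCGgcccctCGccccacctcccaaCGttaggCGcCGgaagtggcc
PAGE5: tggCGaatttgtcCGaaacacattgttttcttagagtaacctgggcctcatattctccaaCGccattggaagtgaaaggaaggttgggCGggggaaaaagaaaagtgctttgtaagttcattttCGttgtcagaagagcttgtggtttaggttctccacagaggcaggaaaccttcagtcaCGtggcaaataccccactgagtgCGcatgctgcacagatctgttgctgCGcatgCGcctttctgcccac
PTX4: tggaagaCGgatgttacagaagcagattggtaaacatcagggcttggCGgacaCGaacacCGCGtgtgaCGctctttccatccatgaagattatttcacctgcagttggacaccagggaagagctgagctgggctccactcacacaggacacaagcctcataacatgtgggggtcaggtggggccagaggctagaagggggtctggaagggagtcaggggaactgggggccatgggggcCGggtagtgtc

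The group grew with dose. Of the 9871 genes, 5 stood at 1 CPM of the library total or more at 5 nM (0.0507%), 116 at 12.5 nM (1.18%) and 347 at 25 nM (3.52%). Of the 347, 341 were higher at 25 than at 12.5 nM and 113 had already reached the limit there. Most stayed low, with a median of 1.73 CPM, and 19 reached 10 CPM. The highest was DAZL, an RNA-binding protein of germ cells, with 0 reads in both untreated libraries and 0.0574, 10.4 and 80.8 CPM of the library total over the doses. After GTSF1 and PAGE5 came TDRD9 (26.9 CPM at 25 nM), a helicase of the piRNA pathway, TEX15 (21.8 CPM), and CTCFL (20.8 CPM), the testis paralog of the insulator protein CTCF. GATA2, a transcription factor of blood stem cells and no germline gene, had 1 and 2 reads untreated and 0.287, 1.41 and 8.93 CPM over the doses. The reverse was rare: of 12492 genes at 1 CPM or more in both untreated libraries, 0, 2 and 2 were at 3 reads or fewer at 5, 12.5 and 25 nM. Among genes with at most 3 reads in both untreated libraries of the other lines, 80 of 10454 stood at 1 CPM or more at 25 nM in HH (0.765%) and 122 of 9967 in TLOm1 (1.22%), which were sequenced more deeply. In PF382 after azacitidine at 500 nM, 158 of the 347 (45.5%) stood at 1 CPM or more, against 180 of all 9871, although the second untreated library belongs to that set and had a part in the choice.

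**Figure D1:**
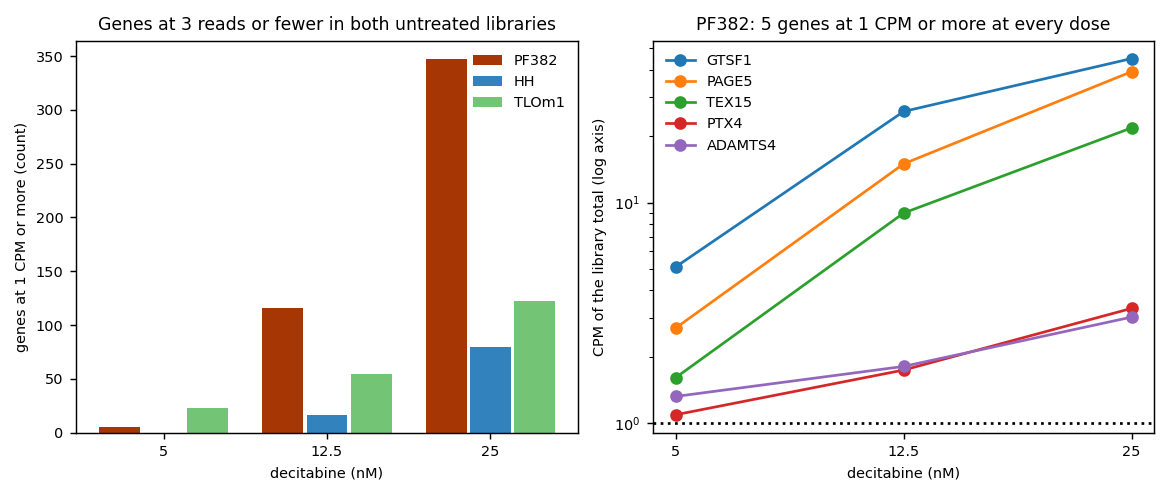
Left, the number of genes with at most 3 reads in both untreated libraries of a line that stood at 1 CPM of the library total or more at each decitabine dose (nM), for PF382, HH and TLOm1, 1 library per bar. Right, CPM of the library total on a log axis for the 5 PF382 genes at or above 1 CPM (dotted line) at every dose. PF382 went from 5 genes at 5 nM to 347 at 25 nM, and each of the 5 genes rose at each step.

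Set against the untreated library, the 3 doses together gave few calls. Among 14333 genes tested, 38 were higher (0.265% of those tested) and 7 lower (0.0488%) by the edgeR quasi-likelihood test at an adjusted p under 0.05, with 2620 genes at an unadjusted p under 0.05. Of the calls, 35 of the 38 and all of the 7 lay outside both untreated libraries in all 3 decitabine libraries. By that criterion alone, with no test, 2514 genes stood above both untreated libraries at every dose (17.5%) and 3281 below both (22.9%). The single untreated library was assumed to vary like the other libraries, and the spread between doses counts as error here, so a gene that rises steeply with dose is hard to call. The counts depend on these choices. Without the 5 nM library 737 genes were higher and 395 lower, without 12.5 nM 19 and 0, without 25 nM 23 and 0, with a slope on dose added to the fit 1537 and 2028, with the second untreated library in place of the first 1958 and 2136, and with the 4 PF382 libraries alone 0 and 0 (1427 at an unadjusted p under 0.05).

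VAMP8, a SNARE protein of vesicle fusion, was at 1.94 CPM untreated, at 2.67 CPM in the second untreated library and at 9.06, 17.2 and 16.5 CPM over the doses. All decitabine libraries thus lay above both untreated ones, with a log2 fold change of 2.87 ± 0.35 (SE; adjusted p = 0.00217). ANXA2, a calcium-dependent membrane-binding protein, was at 9.51 and 14.1 CPM untreated and at 32.0, 56.5 and 71.9 CPM over the doses (2.49 ± 0.37, adjusted p = 0.0137). LPAR6, a receptor for lysophosphatidic acid, went from 7.02 and 6.60 CPM to 25.9, 48.3 and 61.7 CPM (2.69 ± 0.51, adjusted p = 0.0427). Both climbed at every step of dose. GIMAP6, an immunity-associated GTPase of lymphocytes, was at 4.54 and 4.78 CPM untreated and at 15.1, 23.8 and 29.0 CPM (2.31 ± 0.43, adjusted p = 0.036). TP53I3, a p53-induced oxidoreductase, went from 0.303 and 1.09 CPM to 2.52, 6.08 and 5.73 CPM, and the receptor tyrosine kinase gene ERBB3 from 0.605 and 0.445 CPM to 5.76, 11.0 and 12.3 CPM. The increases for GPR17, a G protein-coupled receptor, MAP3K6, a stress kinase, AKR1C1 and TARP were 2.40 to 3.81 on the log2 scale. AKR1C1 shares reads with near-identical paralogs and TARP lies within the T-cell receptor gamma locus, so their counts are uncertain.
RAPSN, which anchors receptors at the neuromuscular junction, had 3 and 4 reads untreated and 3.19, 6.48 and 4.65 CPM over the doses. SLC39A4, a zinc transporter, had 0 and 5 reads untreated and 0.875, 2.08 and 2.09 CPM, so its fitted fold change is no bound and is not given.
Among genes with a mean of at least 50 CPM, the called increases were smaller. CD164, a sialomucin, was at 366 and 259 CPM untreated and at 494, 625 and 667 CPM over the doses (0.70 ± 0.14, adjusted p = 0.0427). HLA-B, an antigen-presenting chain of MHC class I, was at 31.3 and 52.6 CPM untreated and at 60.3, 69.6 and 95.6 CPM (1.26 ± 0.22, adjusted p = 0.026). The second untreated library stood close to the 5 nM library here, and against it the call was lost (log2 fold change 0.51, adjusted p = 0.0705). ABCB10, a mitochondrial transporter, LAPTM5, a lysosomal protein of blood cells, and NIN, a centrosome protein, were called with log2 fold changes of 1.06, 1.10 and 0.55. CSRP1 missed the threshold (0.39 ± 0.087, adjusted p = 0.0651).

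The 7 genes called lower fell by 0.51 to 1.14 on the log2 scale. NPRL3, part of a complex that restrains mTORC1, was at 76.0 and 80.5 CPM untreated and at 48.4, 35.8 and 27.9 CPM over the doses (-1.02 ± 0.20, adjusted p = 0.0427). DOT1L, the histone H3 lysine methyltransferase, was at 142 and 224 CPM untreated and at 103, 85.2 and 79.3 CPM (-0.67 ± 0.13, adjusted p = 0.0311). Both were lowest at 25 nM and below both untreated libraries at every dose. GNB1L fell by 1.14 on the log2 scale, IQCE by 0.95, AMDHD2, an enzyme of amino sugar breakdown, by 0.83, RGS14, a regulator of G protein signaling, by 0.55 and COPS7B, a subunit of the COP9 signalosome, by 0.51. The next genes in line, all uncalled, were MRPS2 (-0.82, adjusted p = 0.053), AGPAT3 (-0.63, adjusted p = 0.053) and BTBD2 (-0.93, adjusted p = 0.0533). The chaperone gene HSPA8 was at 981 and 1620 CPM untreated and at 714, 635 and 554 CPM (-0.63 ± 0.14, adjusted p = 0.0613), its cochaperone DNAJA2 had -0.39 and FOXK2, a forkhead factor, -0.49, and none of these passed.

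**Figure D2:**
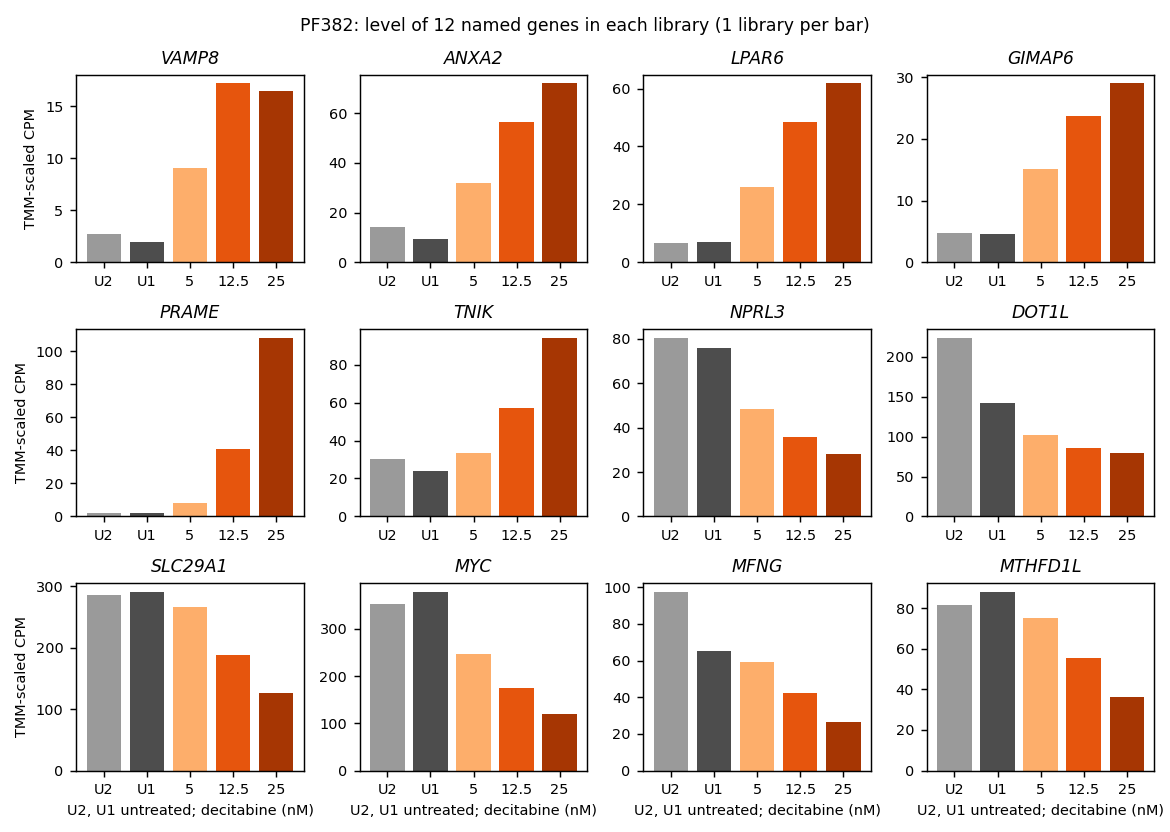
TMM-scaled CPM of 12 named genes in the second untreated (U2), untreated (U1) and 5, 12.5 and 25 nM decitabine libraries of PF382, 1 library per bar and no error bars. VAMP8, ANXA2, LPAR6 and GIMAP6 stand above both untreated libraries at 5 nM already, PRAME and TNIK climb most toward 25 nM, and the others step down with dose.

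The trend among the doses alone, which leaves the untreated library out, gave many more calls. The fitted log2 change per doubling of dose, called the slope, was above 0 for 1461 genes called rising (10.2%) and below 0 for 1581 called falling (11%), with 4777 at an unadjusted p under 0.05. The median slope was 0.50 for rising genes, with 309 at 1 or more, and -0.19 for falling ones, with 3 at -1 or less. Genes near 0 in untreated cells passed the filter only through the treated libraries where they were high, so these sizes cannot be compared. The split depends on the scaling. With library totals in place of TMM, 1938 genes rose and 714 fell (73.1% of calls rising, against 48%). With DESeq2's size factors, here the RLE factors of edgeR in the edgeR fit, 1686 rose and 1031 fell (62.1%). The 714 were all among the 1581. Library totals also moved the median log2 fold change of all genes from -0.04 to 0.07. The untreated libraries took no part in this test. The untreated library lay below the 5 nM library in 1050 of the 1461 rising genes (71.9%, against 44.3% of all genes) and above it in 1272 of the 1581 falling ones (80.5%, against 55.5%). The slope rests on 3 libraries and its p value measures how far levels stray from a straight line over dose in all 6 dose series, so it may be too small for what separate cultures would show. Without the 5 nM library 199 genes rose and 42 fell, without the 25 nM library 235 and 49, and without the 12.5 nM library 1612 and 1086.

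Among rising genes in dose order, those of smallest p were mostly low in untreated cells. PRAME, a tumor antigen gene, was at 1.88 and 1.86 CPM untreated and at 8.24, 41.0 and 108 CPM over the doses, a slope of 1.59 ± 0.08 per doubling (adjusted p = 6.04e-14). TKTL1, a transketolase-like gene, stayed near its untreated level at 5 nM (0.515 against 0.242 and 0.202 CPM) and reached 4.63 and 24.6 CPM (2.40 ± 0.15, adjusted p = 5.72e-12). THBS1, a secreted inhibitor of angiogenesis, did the same, with 0.424 and 0.243 CPM untreated and 0.154, 2.72 and 14.2 CPM (2.56 ± 0.17, adjusted p = 1.85e-11). The last pair moved only from 12.5 nM on. CRYM, a thyroid hormone-binding protein, went from 1.51 and 1.78 CPM to 5.35, 22.4 and 62.5 CPM, and SLFN13, a member of the Schlafen family, from 5.57 and 6.03 CPM to 7.15, 18.8 and 41.5 CPM. TNIK, a kinase of the Wnt pathway, was expressed before treatment, at 24.0 and 30.5 CPM, and rose to 33.5, 57.1 and 94.3 CPM (0.64 ± 0.046, adjusted p = 9.99e-11).

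Among falling genes in dose order, the 6 of smallest p ran from 15.6 to 379 CPM in the untreated library. SLC29A1, the equilibrative nucleoside transporter through which cytidine analogs enter cells, was at 291 and 286 CPM untreated and at 266, 187 and 126 CPM over the doses, a slope of -0.46 ± 0.042 per doubling (adjusted p = 8.63e-09). MYC, the transcription factor of growth and biosynthesis, was at 379 and 352 CPM untreated and at 248, 174 and 120 CPM (-0.45 ± 0.043, adjusted p = 1.61e-08). Both lay below the 2 untreated libraries at every dose. MTHFD1L, a mitochondrial enzyme of folate metabolism, went from 88.2 and 81.9 CPM to 75.4, 55.5 and 36.3 CPM, and MFNG, a glycosyltransferase that modifies NOTCH receptors, from 65.4 and 97.5 CPM to 59.4, 42.5 and 26.7 CPM. FA2H, a fatty acid hydroxylase, was at 79.6 and 51.7 CPM untreated and at 87.7, 49.2 and 32.2 CPM (-0.62 ± 0.06, adjusted p = 3.48e-08), and PLD6, a mitochondrial enzyme of the piRNA pathway, at 15.6 and 6.56 CPM untreated and at 12.4, 5.96 and 3.82 CPM (-0.75 ± 0.082, adjusted p = 1.92e-07). Levels of these 2 overlapped those of the untreated libraries.

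Gene lists were read by the slope, against the 10.2% of all genes that rose and the 11% that fell. Most of these counts need both the lowest and the highest dose. Without the 5 nM or without the 25 nM library, no list but that of germline genes kept more than 4 calls in either direction. Germline genes kept 20 and 23 rising. Without the 12.5 nM library 41 germline genes rose. In that fit 25 genes of MYC and ribosome biogenesis, 11 of cholesterol synthesis and uptake and 8 of the immature thymocyte fell. Of replication and cell cycle genes 3 fell, against 10 with all doses. Of 42 cancer-testis and germline genes tested, 40 rose and 0 fell. Many passed the filter on low values only through their treated libraries, so their share cannot be set against that of all genes. Of the 66 members at 3 reads or fewer in both untreated libraries, 36 (54.5%) were at 1 CPM of the library total or more at 25 nM, and 13 of the 79 members in the table had 0 reads in all 5 libraries. The summed level over the list was 94.9 and 100 CPM in the untreated libraries and 124, 321 and 783 CPM over the doses. STAG3, a meiotic cohesin subunit, was expressed beforehand, at 19.4 and 24.4 CPM, and rose to 25.1, 56.0 and 104 CPM (0.88 ± 0.062, adjusted p = 1.46e-10). MEI1, needed for meiotic recombination, went from 0.787 and 0.972 CPM to 1.13, 4.22 and 13.6 CPM, and PASD1, a cancer-testis antigen gene, from 0 in both to 0.103, 0.926 and 6.20 CPM. MAGE, SSX and PAGE genes exist in near-identical copies whose reads may be split, so values of single members are uncertain.

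Growth genes that MYC is known to drive fell alongside it. Of 28 genes of the MYC and ribosome biogenesis list 26 fell and 0 rose, with a median slope of -0.21 against -0.012 over all genes, and with library totals as the scaling 22 fell. Without the 5 nM library 4 fell and without the 25 nM library 1. NOLC1, a nucleolar assembly factor, was at 560 and 446 CPM untreated and at 506, 414 and 300 CPM over the doses (-0.32 ± 0.04, adjusted p = 1.44e-06). PA2G4, a growth-associated RNA-binding protein, had a slope of -0.29 and PES1, a ribosome assembly factor, of -0.26. The summed level went from 8657 CPM to 7788, 6928 and 5496 CPM. The second untreated library stood at 7079 CPM, between the 5 and 12.5 nM libraries. Below both untreated libraries at every dose lay 6 of the 28 genes, a share near the 22.9% of all genes. The other list of proliferation genes depended on the scaling: of 39 replication and cell cycle genes 10 fell with TMM and 1 with library totals, with MCM3, a subunit of the replicative helicase, at 603 and 622 CPM untreated and at 606, 557 and 461 CPM (-0.17 ± 0.043, adjusted p = 0.00595).

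Of 22 genes of cholesterol synthesis and uptake 13 fell and 0 rose (11 and 1 with library totals, 0 falling without the 5 nM and 4 without the 25 nM library). Of the 22, 19 were below both untreated libraries at every dose, against 22.9% of all genes. DHCR7, which makes cholesterol from its last precursor, was at 59.3 and 80.8 CPM untreated and at 50.1, 34.2 and 25.8 CPM over the doses (-0.41 ± 0.047, adjusted p = 3.36e-07). FDFT1, the squalene synthase, had a slope of -0.30, INSIG1, the sterol-regulated retention factor, of -0.29 and SREBF2, the master transcription factor of the pathway, of -0.23. Of 29 glycolysis and hypoxia genes 11 fell and 2 rose (8 and 3 with library totals, 0 and 0 without the 5 nM or the 25 nM library). The falling ones were mostly enzymes of glycolysis: ENO1 was at 1860 and 2896 CPM untreated and at 1641, 1325 and 1035 CPM (-0.28 ± 0.044, adjusted p = 3.82e-05), TPI1 at 588 and 1038 CPM untreated and at 518, 408 and 318 CPM, and ALDOA and PFKP had slopes of -0.22 and -0.26. Of all the lists, the untreated libraries differed most in this one. Their summed levels for this list were 12549 and 18956 CPM, against 11394, 9580 and 8026 CPM over the doses.

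**Figure D3:**
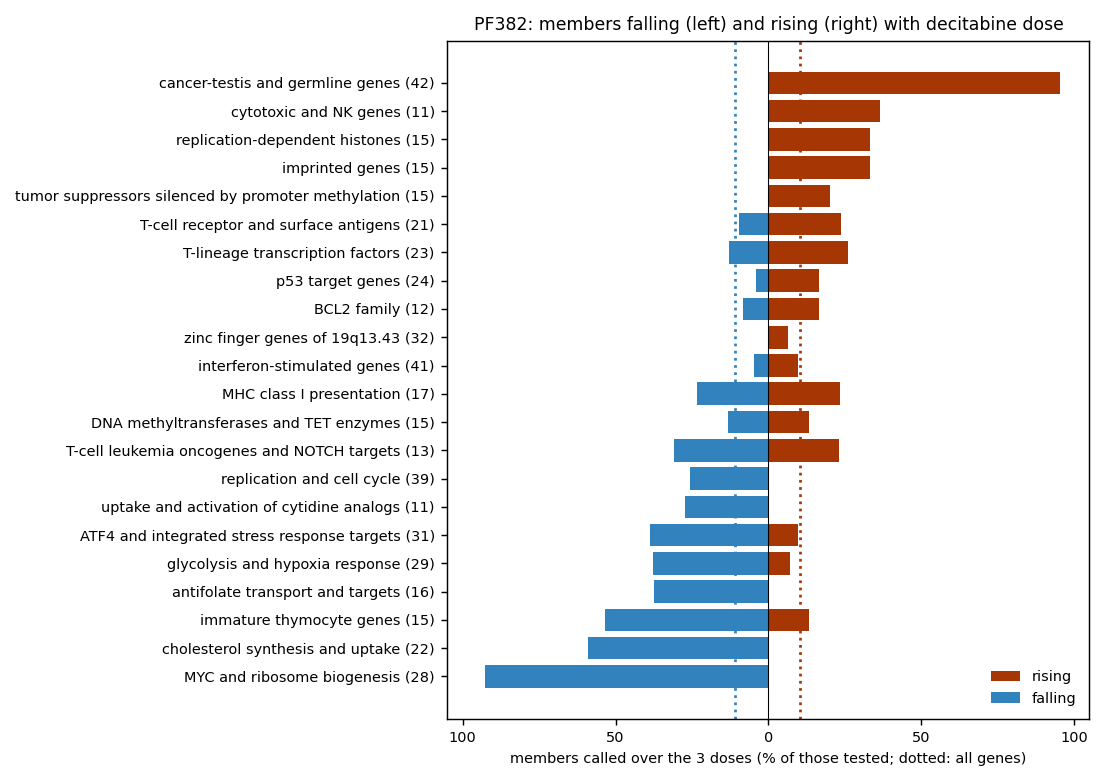
Percent of tested members of each gene list with 10 or more tested members that fell (left) or rose (right) over the 3 decitabine doses of PF382 by edgeR at an adjusted p under 0.05, with the number tested in parentheses and the shares of all genes (11% and 10.2%) as dotted lines. Germline genes are at 95.2% rising, genes of MYC and ribosome biogenesis at 92.9% falling. Many germline genes passed the filter only through their treated libraries, so their share cannot be set against the dotted line.

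Genes of the immature thymocyte fell in part. Of 15 on that list 8 fell and 2 rose, also with library totals, while 2 fell and 0 rose without the 5 nM or the 25 nM library. RAG1, the recombinase of receptor gene rearrangement, was at 1296 and 1176 CPM untreated and at 1154, 898 and 674 CPM over the doses (-0.33 ± 0.041, adjusted p = 1.00e-06). CD1C, a lipid antigen-presenting molecule, was at 108 and 96.2 CPM untreated and at 72.5, 45.2 and 28.7 CPM (-0.57 ± 0.059, adjusted p = 2.41e-07), and CD1A at 179 and 172 CPM untreated and at 135, 91.3 and 71.3 CPM. CD1B, CD1D, CD1E, RAG2 and ADA fell as well. KIT and MME, which mark early progenitors, rose, MME from 0 and 0.081 CPM to 0.721, 1.56 and 3.70 CPM. MME passed the filter only through its treated libraries. Among 23 transcription factors of the T lineage 6 rose and 3 fell (8 and 2 with library totals). KLF2, a factor of quiescent and migrating T cells, went from 1.27 and 3.20 CPM to 4.89, 15.6 and 31.2 CPM (1.14 ± 0.085, adjusted p = 1.46e-10), while TCF7, which sets the T-cell program in the thymus, went from 1692 and 2353 CPM to 1438, 1110 and 835 CPM (-0.33 ± 0.04, adjusted p = 6.77e-07). BACH2 and ID2, both repressors of differentiation programs, rose with slopes of 0.79 and 1.04, BACH2 from a level at 5 nM (9.16 CPM) that did not exceed the untreated ones (10.5 and 9.51 CPM). Of 21 T-cell receptor and surface antigen genes 5 rose and 2 fell. CD8A was at 24.2 and 19.6 CPM untreated and at 33.6, 48.4 and 56.3 CPM (0.32 ± 0.068, adjusted p = 0.00107), CD247, a signaling chain of the receptor, rose by 0.21 and the kinase genes ZAP70 and LCK fell by 0.15 and 0.14 per doubling, but with library totals 7 rose and 0 fell. None of CD3D, CD3E, CD3G, CD2, CD4, CD5 and CD7 passed the threshold. Of 13 leukemia oncogenes and NOTCH targets 3 rose and 4 fell (3 and 3 with library totals), among them NRARP, a feedback inhibitor of NOTCH signaling (0.545 and 0.202 CPM untreated, 0.463, 3.07 and 8.59 CPM), HHEX (slope 0.91) and NOTCH3 (273 and 415 CPM untreated, 237, 188 and 172 CPM).

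**Figure D4:**
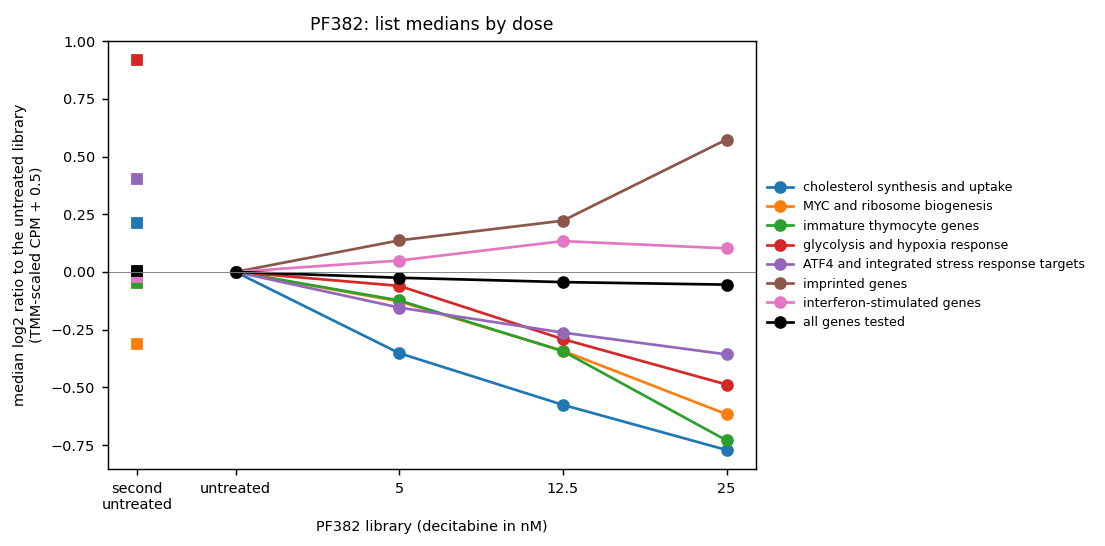
Median over list members of the log2 ratio to the untreated library, from TMM-scaled CPM with 0.5 added, at 5, 12.5 and 25 nM decitabine (circles) and in the second untreated library (squares), for 7 lists and all 14333 genes tested. At 25 nM the medians were -0.77 for cholesterol genes, -0.73 for immature thymocyte genes and -0.62 for MYC and ribosome biogenesis against -0.06 for all genes, and the second untreated library stood at 0.92 for glycolysis genes.

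The enzymes on which decitabine acts and through which it enters moved in different ways. DNMT3B, a de novo DNA methyltransferase, was at 32.0 and 56.8 CPM untreated and at 58.8, 81.5 and 95.2 CPM over the doses (0.30 ± 0.062, adjusted p = 0.000828), with the 5 nM library close to the second untreated one. UHRF1, which brings DNMT1 to replicated DNA, was at 586 and 662 CPM untreated and at 550, 477 and 373 CPM (-0.24 ± 0.052, adjusted p = 0.00314). DNMT1, the maintenance methyltransferase, went from 596 and 713 CPM to 569, 540 and 470 CPM without passing the threshold (slope -0.11, adjusted p = 0.0664), and DNMT3A had a slope of 0.12 (adjusted p = 0.115). Over the list of 15 methyltransferase, TET and reader genes 2 rose, the other being TET2, a DNA demethylase (0.16 ± 0.059, adjusted p = 0.0495), and 2 fell, the other being MBD3 (-0.19 ± 0.045, adjusted p = 0.00308). Of 11 genes of cytidine analog uptake and activation 3 fell and 0 rose, and with library totals 2 fell. SLC29A1 is described above. RRM1, a subunit of ribonucleotide reductase, fell by 0.15 and DCTD, the dCMP deaminase, by 0.14 per doubling, and DCK, the kinase that activates decitabine, was between 174 and 188 CPM in the 4 libraries (slope -0.02, adjusted p = 0.786). Of 16 genes of folate transport and antifolate targets 6 fell and 0 rose, and 3 fell with library totals. SLC19A1, the reduced folate carrier, was at 47.1 and 44.5 CPM untreated and at 37.9, 28.4 and 21.2 CPM (-0.36 ± 0.057, adjusted p = 4.48e-05), and SHMT2, the mitochondrial serine hydroxymethyltransferase, at 245 and 288 CPM untreated and at 202, 159 and 130 CPM. ATIC, of purine synthesis, and MTHFD1 fell by 0.23 and 0.16 per doubling.

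Most interferon and p53 target genes passed the threshold in neither direction, which also holds for all genes tested. Of 41 interferon-stimulated genes 4 rose and 2 fell, shares below those of all genes (7 and 0 with library totals), and the summed level stayed between 1488 and 1544 CPM in the 4 libraries of the series. By direction alone, 14 of the 41 stood above both untreated libraries at every dose and 5 below both, against 17.5% and 22.9% of all genes. MX2, an antiviral GTPase, rose from 40.1 and 44.9 CPM to 49.8, 69.1 and 104 CPM (0.45 ± 0.059, adjusted p = 2.84e-06), IFITM2 from 0.242 and 0.324 CPM to 2.01, 3.88 and 6.26 CPM, and IFITM3 and IRF9 had slopes of 0.80 and 0.34. IFITM2 passed the filter only through its treated libraries. With the filter's level required in all 4 libraries of the series, 2 of 36 interferon-stimulated genes rose and 0 fell. In MHC class I presentation 4 of 17 genes rose and 4 fell (7 and 3 with library totals): HLA-B and HLA-C rose by 0.28 and 0.21 per doubling and the peptide trimmers ERAP1 and ERAP2 fell by 0.20 and 0.21. Reads of HLA genes may be split between near-identical copies. Of 5 MHC class II genes tested 0 passed. Among 24 p53 targets 4 rose (16.7%, against 10.2% of all genes) and 1 fell (4.17%, against 11%). TP53INP1 went from 3.94 and 4.25 CPM to 4.79, 11.5 and 22.2 CPM (0.95 ± 0.098, adjusted p = 8.81e-08). The antiproliferative gene BTG2 went from 7.57 and 9.47 CPM to 12.7, 24.4 and 41.5 CPM. CDKN1A, the cell cycle inhibitor p21, went from 1.21 and 2.06 CPM to 1.08, 2.95 and 5.19 CPM, while the nuclease gene AEN fell by 0.32 per doubling. TP53I3, described above, had a slope of 0.49 (adjusted p = 0.0175). In the BCL2 family 2 of 12 rose, BCL2L2 (slope 0.52) and the BH3-only gene BMF (0.43), and BID fell (-0.23), a call lost with library totals.

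Imprinted genes and genes known for methylated promoters were read in the same way. Of 15 imprinted genes 5 rose and 0 fell: MEST went from 12.3 and 9.43 CPM to 15.5, 20.4 and 31.6 CPM (0.44 ± 0.1, adjusted p = 0.00347), SGCE had a slope of 0.55, L3MBTL1 of 1.41 and PEG10 of 0.15. Of 15 tumor suppressors described as silenced by promoter methylation 3 rose, THBS1, the Wnt antagonist SFRP5 (0 in both untreated libraries and 0.36, 1.74 and 4.30 CPM) and SOCS3 (slope 0.81), and 0 fell. THBS1 and SFRP5 passed the filter on low values only through their treated libraries. Of 32 zinc finger genes of 19q13.43 2 rose by the slope, ZNF772, from 0.242 and 0.243 CPM to 1.65, 7.70 and 14.0 CPM (1.28 ± 0.15, adjusted p = 3.54e-07), and ZSCAN4 (slope 0.98). Both passed the filter only through treated libraries. Of the 30 that reached its level in all 4 libraries of the series 0 rose. By direction alone, 13 of the 32 stood above both untreated libraries at every dose and 4 below both, against 17.5% and 22.9% of all genes. Of 15 replication-dependent histone genes 5 rose and 0 fell, with HIST2H2BE at 2.42 and 4.05 CPM untreated and at 2.63, 3.76 and 9.66 CPM (0.85 ± 0.14, adjusted p = 7.55e-05). The rise was among the doses: 1 of the 15 stood above both untreated libraries at every dose and 5 stood below both. With the filter's level required in all 4 libraries of the series, 4 of 8 histone genes rose and 0 fell.

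Some markers of other cell types moved with dose as well, at low levels. Several, such as EPCAM and PDGFRB, passed the filter only through the treated libraries where they were high. The shares rising are therefore a description and cannot be set against those of all genes. With the filter's level required in all 4 libraries of the series, 2 of 7 cytotoxic and 1 of 5 epithelial genes rose. The same held for 2 of 5 fibroblast and endothelial, 0 of 2 myeloid and 1 of 2 erythroid genes. Of 11 cytotoxic and NK genes 4 rose, and the list summed to 16.5 and 20.7 CPM untreated and to 22.4, 27.8 and 44.1 CPM over the doses, with CTSW, GZMA, GNLY and NCR3 as the rising members and each below 7 CPM. Of 6 epithelial markers 2 rose, EPCAM (0.242 and 0 CPM untreated and 0.0515, 1.79 and 4.24 CPM) and KRT18, and the list summed to 16.8 and 17.1 CPM untreated and to 30.3, 43.6 and 56.6 CPM. Of 7 fibroblast and endothelial markers 4 rose and 1 fell, with PDGFRB, a growth factor receptor, at 0.0605 and 0.162 CPM untreated and at 0.463, 3.41 and 16.3 CPM (2.23 ± 0.15, adjusted p = 1.64e-10) and DCN, a matrix proteoglycan, going from 4.60 and 4.78 CPM to 4.07, 1.85 and 0.656 CPM. In the myeloid list CEBPE rose (0.424 and 0.202 CPM untreated, 7.46 CPM at 25 nM), as did EPOR in the erythroid list (slope 0.44, but 2.42, 2.49 and 4.83 CPM against 4.06 and 5.87 CPM untreated), 1 each of 3 and 2 tested. Members with 0 reads in all 5 libraries numbered 3 of 14 epithelial, 2 of 15 fibroblast and endothelial, 3 of 16 myeloid, 8 of 20 erythroid and megakaryocyte and 3 of 21 cytotoxic genes. In bulk RNA a change in expression per cell and a change in the share of cells cannot be told apart, and the part of other cells in these results was not tested.

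The response was then set against that of the other lines. The decitabine effect in PF382 minus the mean of the HH and TLOm1 effects passed for 7 genes (0.0488%; 1767 at an unadjusted p under 0.05), all higher in PF382, and with a slope added in each series for 1873. Without the 5, 12.5 or 25 nM library it passed for 239, 3 and 4 genes. VAMP8 had log2 fold changes of 2.87 in PF382, -0.03 in HH and 0.49 in TLOm1 (difference 2.64 ± 0.39, adjusted p = 0.0241). SLC25A24, a mitochondrial carrier, had 1.77, 0.14 and -0.20 (difference 1.80 ± 0.30, adjusted p = 0.0487), with 16.5 and 13.3 CPM untreated and 38.7, 56.8 and 74.3 CPM in PF382. SYT1, a calcium sensor of vesicle release, was at 3.88 and 0.850 CPM untreated and between 8.80 and 10.4 CPM over the doses (difference 1.51 ± 0.26, adjusted p = 0.0487), and SLC39A4 is described above. The others were RIPK2 and CBLN3, at low levels, and the pseudogene DOC2GP, named after their values were seen. SLC39A4, CBLN3 and DOC2GP passed the filter only through treated libraries of PF382. Genes near 0 in PF382 but raised in HH or TLOm1 were not tested. That all 7 were higher in PF382 is therefore a description. AKR1C1, MGAT4B, TMBIM1 and ANXA2 came next and were not called. A test of the slopes, added after they were seen, called 1170 genes (8.16%), 467 with a higher slope in PF382 (3.26%) and 703 with a lower one (4.9%). Without the 5 nM library 103 genes were called and without the 25 nM library 101. TNIK had slopes of 0.64 in PF382, -0.04 in HH and -0.00 in TLOm1 (difference 0.67 ± 0.054, adjusted p = 5.25e-09). SLC29A1 had -0.46, -0.01 and -0.04 (difference -0.43 ± 0.053, adjusted p = 4.69e-06), and MYC had -0.45, -0.26 and -0.16 (difference -0.24 ± 0.052, adjusted p = 0.004). In the MYC and ribosome biogenesis list 12 of 28 genes had a lower slope in PF382 than in the other lines and 0 a higher one, and in HH and TLOm1 1 each fell. Of 22 cholesterol genes 15 fell in HH and 3 in TLOm1, and the slope was lower in PF382 for 2 and higher for 1. Of germline genes 7 of 42 had a higher slope in PF382 and 0 a lower one, and 16 rose in HH and 20 in TLOm1. The 42 had passed a filter on PF382 libraries alone, so germline genes expressed only in HH or TLOm1 were not tested. These counts are therefore a description and no measure of a stronger response in PF382. Over all genes tested 587 rose in HH (4.1%) and 167 fell (1.17%), and 208 rose in TLOm1 (1.45%) and 30 fell (0.209%). Genes near 0 in PF382 but raised in HH or TLOm1 are missing here, so these counts cannot be set against those of PF382.

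Azacitidine in the same line gave partly the same trends. Its slopes rose for 895 genes (6.24%) and fell for 689 (4.81%), at doses that do not match those of decitabine. Of the genes rising with decitabine 491 also rose with azacitidine (33.6% of the decitabine and 54.9% of the azacitidine list), 324 fell with both (20.5% and 47%) and 34 went opposite ways. The filter counted no azacitidine-treated library, so genes raised from near 0 by azacitidine alone were not tested. This limits how the shares can be read. Across the 14333 genes the slopes had a Pearson correlation of 0.62 and a Spearman correlation of 0.43, given as a description since the genes share libraries. Of the 42 germline genes 40 rose with each drug. SLC29A1 fell by 0.33 and RAG1 by 0.27 per doubling of azacitidine.

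The drugs differed in PF382 in genes of amino acid metabolism under the transcription factor ATF4, which cells activate when amino acids run short or the endoplasmic reticulum is stressed. With decitabine 12 of 31 ATF4 and integrated stress response targets fell and 3 rose (6 and 5 with library totals, 0 and 1 without the 5 nM library, 1 and 0 without the 25 nM library), and with azacitidine 21 rose and 0 fell. A test of the difference of the slopes, added after they were seen, called 280 of 14333 genes (1.95%), 132 with a lower slope for decitabine (0.921%) and 148 with a higher one (1.03%). Without the 5 nM decitabine library 10 genes were called and without the 25 nM one 34. Of the 31 targets, 15 had a lower slope for decitabine and 0 a higher one. SLC7A5, an amino acid transporter, was at 439 CPM untreated and at 329, 259 and 224 CPM with decitabine, and at 546 CPM untreated and at 612, 708 and 1061 CPM with azacitidine (difference of slopes -0.64 ± 0.074, adjusted p = 3.71e-05). Its partner SLC3A2 had slopes of -0.21 and 0.33 (difference -0.54 ± 0.069, adjusted p = 3.27e-05). ASNS, the asparagine synthetase, was at 26.8 CPM untreated and at 18.1, 9.95 and 9.72 CPM with decitabine, and at 27.2 CPM untreated and between 23.5 and 31.1 CPM with azacitidine, highest at 500 nM (difference -0.63 ± 0.10, adjusted p = 0.000864). SLC7A5 and ASNS thus went down over the decitabine doses and up over those of azacitidine. Enzymes of serine synthesis fell with decitabine, PHGDH by 0.28 and PSAT1 by 0.20 per doubling, against slopes of 0.033 and 0.19 with azacitidine. GPT2, an alanine transaminase, rose with both drugs (0.99 and 1.41). Surface antigens differed in the other direction, with 6 of 21 higher and 2 lower for decitabine: CD7 and CD4 fell with azacitidine, by 0.76 and 0.61 per doubling, and the slopes differed by 0.72 ± 0.14 (adjusted p = 0.00441) and 0.58 ± 0.11 (adjusted p = 0.00501). DNMT3B also differed, with slopes of 0.30 and -0.26 (difference 0.56 ± 0.093, adjusted p = 0.000961). The drugs were given in separate library sets and over different dose ranges, so drug, set and dose cannot be told apart.

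**Figure D5:**
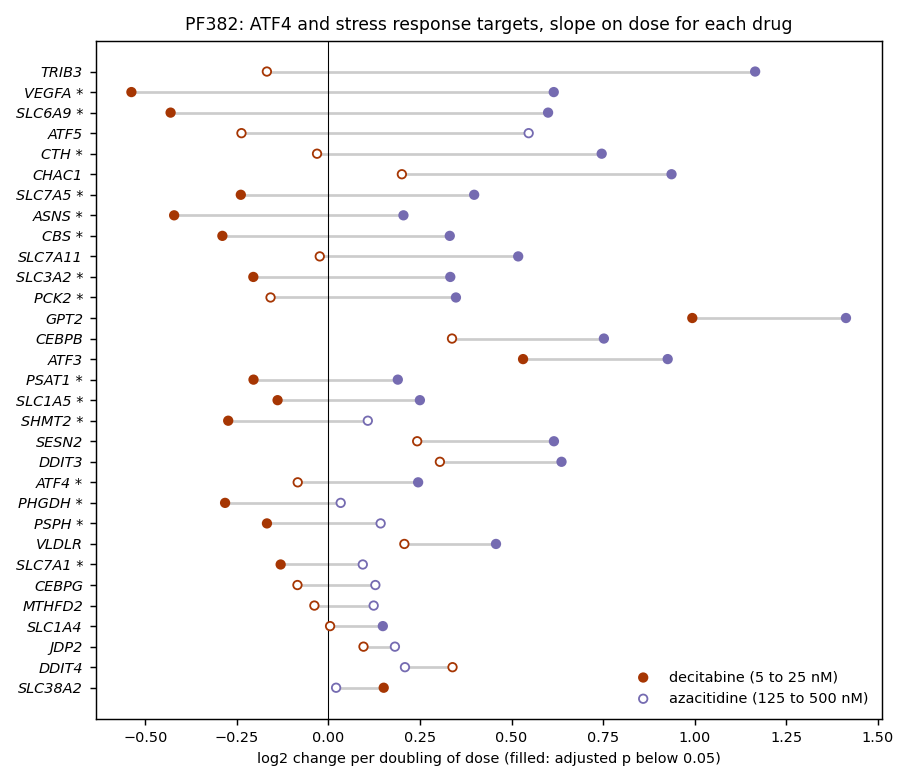
Log2 change per doubling of dose in PF382 for 31 ATF4 and integrated stress response targets, with decitabine (5 to 25 nM) and azacitidine (125 to 500 nM), filled where the slope passed an adjusted p of 0.05 and with an asterisk where the slopes differed. The 15 genes with an asterisk all have the lower slope for decitabine.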

How the data were processed

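The authors deposited raw read counts for 25559 gene symbols in each of 24 libraries. Per the submitters' notes the tools were STAR, limma and DESeq2 and the build GRCh37.p2, with no versions or roles. Counter and annotation: not given in the sources used here. In addition, the labels describe both poly-A and rRNA-depleted RNA. Groups came from the labels. Genes were tested where at least 2 of the 5 PF382 libraries (4 of the decitabine set, 1 untreated of the azacitidine set) reached 0.652 CPM, the level of 10 reads in the library of median size, which left 14333.

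edgeR 4.0.16 in R 4.3.3 was run with TMM scaling, robust quasi-likelihood F tests and Benjamini-Hochberg adjustment over all tested genes at 0.05. All 24 libraries entered 1 fit with an untreated and a treated mean for each line within each set (12 residual degrees of freedom). A second fit added a slope on log2 dose in each series (6 residual degrees of freedom). Nothing in the labels says that libraries came from separate cultures, so p values measure the spread between these libraries only. Standard errors were taken from the estimate and the F test. The 28 lists were described by counts and medians, with no test of a list. DESeq2 1.42.0, limma 3.58.1 (voom), other scalings, filters, sample choices and leave-one-out fits were alternatives. What is called DESeq2's size factors is the RLE scaling of edgeR, used in the edgeR fit and apart from the DESeq2 run. Scripts were tested on simulated data. Promoter windows were found for 10520 of the 14333 genes, under 80%, so a comparison of their CG content was void.

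Named genes are those with symbols, without provisional loci and pseudogenes, that were: the 12 largest increases and 10 largest decreases called, at a mean level of 1 CPM or more and all doses outside both untreated libraries, filled by the smallest p; the 6 rising and 6 falling slopes of smallest p in dose order; the 8 of smallest p for the difference between lines; the 10 highest switched on (5 existed); 6 up and 6 down of smallest p with a mean of at least 50 CPM; up to 4 per list of smallest p; and T-cell and drug target genes. DAZL, TDRD9, CTCFL, GATA2 and some of the listed members named without statistics were chosen after their values were seen. The dose series, the lists and the rule were chosen with earlier results of these data known. Results of 1 marker list are not reported here.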

Additional observations from a re-analysis of the deposited data

Results flagged for a closer look

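The response of PF382 to decitabine differed from the mean of HH and TLOm1 by the test of the difference itself. It did so for 7 genes in the mean effect, among them VAMP8 (2.64 higher on the log2 scale), SLC25A24 (1.80), SYT1 (1.51) and SLC39A4 (8.004, a fitted value against 0 reads and no bound). The filter used PF382 libraries alone, and SLC39A4 passed it only through treated ones, so the direction of these differences is a description.

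In the slope per doubling of dose 1170 genes differed. The named rising genes among them had higher slopes in PF382, by 2.34 for THBS1, 0.93 for SLFN13 and 0.67 for TNIK. The named falling genes had lower ones, with differences of -0.43 for SLC29A1, -0.24 for MYC, -0.37 for MTHFD1L, -0.43 for MFNG and -0.81 for PLD6. MYC also fell in HH and TLOm1, and none of the others passed the test there. Each condition holds 1 library, so single libraries that stand apart from their group could not be looked for.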

How the results depend on the processing

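No paired analysis was possible because each condition has 1 library and the labels give no replicate numbers. For the comparison with untreated cells (38 higher, 7 lower) the counts were 49 and 4 with DESeq2's size factors, 54 and 4 with library totals, 41 and 2 without the filter, 34 and 5 with a stricter one, 355 and 89 with DESeq2, 4 and 1 with limma voom (2338 genes with unadjusted p below 0.05), 4 and 0 with the 12 decitabine-set libraries (2380), 0 and 0 with the 4 libraries alone (1427), 1537 and 2028 with a slope in each series, 1958 and 2136 with the second untreated library in place of the first and 276 and 242 with both and an additive set effect. Leaving out 1 dose gave 19 to 737 higher and 0 to 395 lower, the largest without 5 nM. Falling slopes (1581) numbered 1031 with DESeq2's size factors, 907 with the stricter filter, 988 in the decitabine set and 714 with library totals, DESeq2 gave 769 rising and 549 falling, and leaving out 1 dose 199 to 1612 rising and 42 to 1086 falling. The effect difference from the other lines (7) gave 11 without the filter, 1 with the stricter one, 98 with DESeq2, 0 with limma voom (1474 at an unadjusted p under 0.05), 2 in the decitabine set, 1873 with a slope in each series, 3 against HH, 2 against TLOm1 and 3 to 239 with 1 dose left out. The slope difference (1170) gave 532 with DESeq2 and 101 to 918 with 1 dose left out, and the drug difference (280) 541 without the filter, 127 with DESeq2 and 10 to 205. Genes outside both untreated libraries (5795) numbered 9834 against the first alone and 6323 to 8180 with 1 dose left out. The 5 genes on at every dose became 39 at 0.5 CPM, 2 at 2 CPM, 24 against the first untreated library alone and 5 to 113 with 1 dose left out. The cause of these shifts was not tested. Among values of named genes 461 kept their side of the threshold, 140 lost it and 59 gained it, none with a change of sign, and of list medians 273 stayed within the spread and 119 moved beyond it. RGS14 was lost with the additive set effect (-0.38, adjusted p = 0.121). Depth limits genes at 3 reads or fewer.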
